A study of Sus scrofa with 28 samples.

Results

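Heat shock proteins and the DNAJ co-chaperones were followed through accessible liver chromatin of pigs. The genes were chosen by name, as protein-coding RefSeq genes of the Sscrofa11.1 build whose symbols begin with HSPA, HSPB, HSPD, HSPE, HSPH, HSP90 or DNAJ. HSPA5 and HSP90B1, the main chaperones of the endoplasmic reticulum, were left out of the set. The choice gave 70 genes, of which 69 lie on the 19 chromosomes of the peak lists, among 16315 protein-coding genes with a symbol there. HSP90AA1, the stress-inducible cytosolic HSP90, lies on unplaced sequence and was not analysed here. HSPBP1 and HSPBAP1 entered by their letters. They encode proteins that bind HSP70 and HSPB1, and are no heat shock proteins themselves. The symbol of HSPB11 is likewise only a name by family, since its product is a component of intraflagellar transport.

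The liver samples behind the 28 ATAC-seq libraries were from females of the Zlotnicka White breed of pig, aged 180 days and slaughtered at about 100 kg. They form 4 groups of 7, labelled as high or low fat content with the number 200 or 600, whose meaning the labels do not state. The labels carry the fat groups under a tag named shear force and do not say in which tissue fat was measured. All animals were housed and fed alike, no treatment is named, and all livers passed the same digestion of 10 minutes at 37 °C before freezing. The labels do not name the animals, so it is an assumption here that the 200 and the 600 library with the same number in a fat group belong to 1 animal. That each number in a fat group stands for a separate animal is assumed too. Counts of animals below rest on both assumptions.

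ATAC-seq marks chromatin that a transposase can enter, and each deposited list gives the places where 1 library passed the peak caller's limits. Here a gene is called listed in a library when a peak of that library has its centre within 1000 bp of either annotated end of the gene. The lists held 39 to 17652 peaks per library, and 13 of the 28 held fewer than 1000. A gene end without a listed peak is not shown to be closed, since depth and the authors' filter also decide what is listed. In bulk tissue, fewer cells with an open site cannot be told apart from a weaker site in each cell. Of 10 hepatocyte markers, 7 were listed in at least 1 library, led by HPX in 11, TTR and FGG in 8 each and ALB in 7, while APOB, ASGR1 and CPS1 were not. Markers of other cells were listed for 0 of 6 endothelial, 0 of 5 stellate, 0 of 5 cholangiocyte and 0 of 4 muscle genes. CD14, a monocyte and macrophage gene, was the 1 of 6 Kupffer cell markers listed, in 6 libraries. Lymphocyte markers gave 2 of 6, in 1 library each, and erythroid markers 1 of 4, in 2 libraries. The part of other cell types in the results was not tested.

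Chaperones keep proteins folded, refold damaged ones and hand others to degradation. HSP70 proteins, encoded by the HSPA genes, bind and release unfolded stretches in a cycle driven by ATP. J-domain proteins, encoded by the DNAJ genes, bring them clients and start ATP hydrolysis, and HSP110 proteins such as HSPH1 exchange the nucleotide. The chaperonin of mitochondria is a chamber of HSPD1 (HSP60) closed by HSPE1 (HSP10). Small heat shock proteins of the HSPB group hold unfolding proteins without ATP. Many of these genes are kept ready for rapid induction by heat shock factors, and liver needs them for a large output of secreted and mitochondrial proteins.

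Of the 69 genes, 52 (75.4%) were listed in at least 1 of 28 libraries, where the share over all genes with a symbol was 52.9%. In at least 3 libraries it was 40 (58.0%) against 33.4%, in at least 10 it was 15 (21.7%) against 8.98%, and in at least 14 it was 8 (11.6%) against 2.37%. The median gene of the set was listed in 4 libraries and the median of all genes in 1. No gene of any kind was listed in more than 23 libraries, and the most recurrent genes of the set reached 21. HSPD1 and HSPE1, which share 1 peak, each count as a gene in these figures. Without high fat 200 replicate 1, the library with most peaks, 48 genes (69.6%) were listed against 47.7% of all genes. In the 15 libraries with at least 1000 peaks alone it was again 52.

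**Figure D1:**
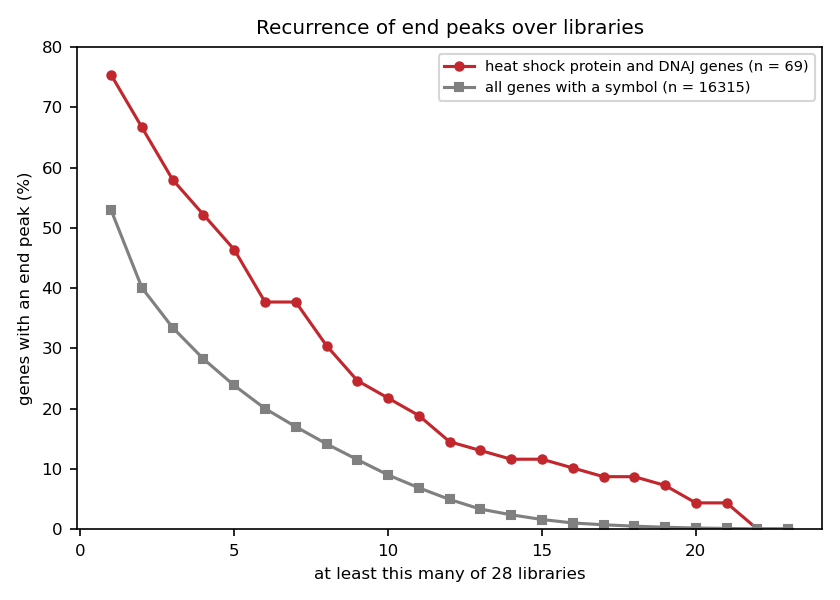
Percentage of genes (vertical axis) with an end peak in at least the number of libraries on the horizontal axis, for the 69 heat shock protein and DNAJ genes (red circles) and all 16315 genes with a symbol (grey squares). The red line lies above the grey one from 1 library (75.4% against 52.9%) to 21.

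By family, the counts were as follows. Of the 12 HSP70 and HSP110 genes, 10 were listed at least once and 5 in at least 10 libraries, a limit reached by 8.98% of all genes. The DNAJB genes gave 9 of 13 and 5 of 13 by the same limits. Of the 27 DNAJC genes, 22 were listed at least once and 2 (7.41%) in at least 10 libraries. DNAJA genes gave 2 of 4 and HSPB genes, with HSPB11 counted among them, 4 of 8, with 0 and 1 in at least 10 libraries. That 1 gene was HSPB11, so no small heat shock protein gene proper reached this limit. Over all DNAJ genes together it was 33 of 44 (75.0%). No test was made between families, and several hold few genes.

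HSPD1 and HSPE1 share 1 region, since their annotated ends lie 520 bp apart on chromosome 15 and the pair is known to be read in opposite directions from a common promoter. The region, from 101372490 to 101374735 on chromosome 15, was listed in 21 libraries. In high fat 200 the deposited −log10 p of this peak ranged from 3.93 to 9.78 (median 4.57, 6 libraries), in low fat 200 from 4.34 to 8.12 (median 6.47, 6 libraries). High fat 600 gave 3.39, 4.39, 7.26 and 8.14, and low fat 600 gave 3.95, 4.78, 5.49, 6.21 and 7.64. The fat groups overlapped in both sets, and replicate 1 or 7 had the highest value in each group. Ranked among all peaks of its own library, the peak at HSPE1 stood at a median percentile of 96.3, with a range from 24.5 to 99.9. The values are the authors' own per peak and carry the unknown depth of the library.

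HSPA13, an atypical HSP70 of the endoplasmic reticulum and its membranes, was also listed in 21 libraries, at its higher-coordinate end (chromosome 13, 179320580 to 179321997). Its deposited −log10 p ran from 3.61 to 10.4 (median 4.29) in 6 high fat 200 libraries and from 4.18 to 9.12 (median 5.87) in 6 low fat 200 libraries. The high fat 600 libraries gave 3.17, 3.37, 6.33 and 6.83 and the low fat 600 libraries 3.22, 4.26, 4.65, 5.51 and 7.40. The groups again overlapped. HSPA13 was listed even in high fat 600 replicate 2, whose 68 peaks reached only 2 genes with a symbol. An unnamed gene has an end within 1000 bp of the same peaks, so they cannot be given to HSPA13 alone.

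HSPA8 (HSC70) is the constitutive cytosolic HSP70, and DNAJB1 (HSP40) is its best-known heat-inducible J-domain partner. Both were listed in 19 libraries, HSPA8 at chromosome 9 from 49985883 to 49987864 and DNAJB1 at chromosome 2 from 64760732 to 64763203. HSPA8 was listed in 6 high fat and 5 low fat 200 libraries and in 3 and 5 of the 600 libraries. DNAJB1 was listed in 6 and 4 of the 200 and in 4 and 5 of the 600 libraries. Taking the stronger of its peaks in each library, HSPA8 had a median −log10 p of 4.61 in high fat 200 (3.74 to 8.83) and 6.88 in low fat 200 (3.91 to 7.31). DNAJB1 had 4.49 (3.88 to 9.03) in high fat 200, and its low fat 200 libraries gave 5.79, 5.79, 7.69 and 7.70. The ranges overlap for both genes. In the 600 set HSPA8 had 4.39, 6.54 and 6.66 in high fat and 3.32, 3.40, 5.17, 5.55 and 6.29 in low fat, and DNAJB1 had 3.40, 3.84, 6.44 and 7.72 in high fat and 3.65, 4.26, 4.99, 6.11 and 6.80 in low fat. These ranges overlap as well. The DNAJB1 peaks were wide, with a median of 1618 bp, and their centres lay mostly inside the gene, by a median of 139 bp.

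**Figure D2:**
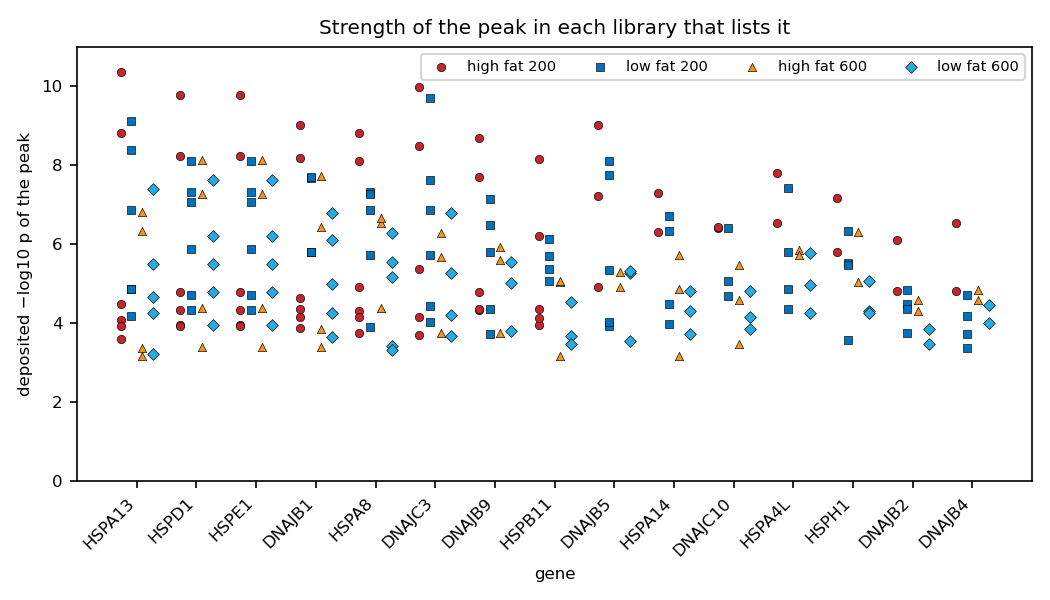
Deposited −log10 p of the peak (vertical axis, linear) at the end with most listings, for the 15 genes listed in at least 10 libraries (horizontal axis). Each point is 1 library that lists the gene, by group, and libraries without the peak have no point. Values run from 3.17 to 10.4 over all libraries, and the groups overlap for HSPA13, HSPD1, HSPE1, DNAJB1 and HSPA8.

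Several DNAJ genes encode J-domain proteins of the endoplasmic reticulum. DNAJC3 (P58IPK), which binds unfolded proteins and HSPA5 there, was listed in 18 libraries (chromosome 11, 65229082 to 65230996), 11 of the 200 and 7 of the 600 set. DNAJB9 (ERdj4), a stress-induced partner of HSPA5, was listed in 16 (chromosome 18, 36583207 to 36585163), at an end that lies beside THAP5. DNAJC10 (ERdj5), a disulfide reductase, was listed in 11 and DNAJC1 in 8. HSPA5 and HSP90B1, left out by the rule, were listed in 11 and 13. DNAJB11 (ERdj3) differed, with an end peak in 1 library only. A region inside that gene, from 124390130 to 124391565 on chromosome 13 and about 2926 bp from its lower end, was listed in 13 libraries, 3 high fat and 4 low fat of the 200 and 3 of each in the 600 set.

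Genes named for heat shock were not alike in recurrence. HSPB11 was listed in 15 libraries, at an end shared with LRRC42. HSPA14, a ribosome-associated HSP70, was listed in 12 beside CDNF. HSPA4L and HSPH1, nucleotide exchange factors of the HSP110 group, were listed in 11 each, in the same 2 high fat and 4 low fat 200 libraries and the same 2 and 3 of the 600 libraries. HSPA14, DNAJB2 and DNAJB4 were listed in those same 200 libraries, so that pattern is not particular to HSPA4L and HSPH1. HSPA9 (mortalin), the HSP70 of mitochondria, was listed in 9 and HSPA4 in 7. HSP90AB1, the constitutive cytosolic HSP90, was listed in 4 libraries at its lower end, with −log10 p of 4.12 and 4.32 in high fat 200, 4.48 in low fat 200 and 4.20 in high fat 600. A second region inside HSP90AB1, from 39242614 to 39244349 on chromosome 7 and about 6182 bp from the lower end, was listed in 4 libraries. HSPB1 (HSP27) was listed in 5, and its peaks were weak for their libraries, at most at percentile 30.4. HSPA2 and the strictly inducible HSPA6 were listed in 2 each, all of them high fat libraries. They were high fat 200 replicate 1 for both genes, and high fat 600 replicate 1 for HSPA2 and replicate 7 for HSPA6. These libraries have the most peaks of their sets (17652, 4455 and 6453), and the part of peak number was not tested. Listing in high fat animals only held for 29.9% of all listed genes.

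The other recurrent co-chaperone genes were DNAJB5 in 13 libraries and DNAJB2 and DNAJB4 in 10 each. DNAJB4 shares its end with FUBP1. Another 11 genes were listed in 7 to 9 libraries, among them DNAJC19 of the mitochondrial import motor (9) and DNAJA1, a farnesylated partner of HSPA8 (8). A further 14 were listed in 3 to 6, 6 in 2 and 6 in 1. Of the 15 genes in at least 10 libraries, 8 had the end of another gene within 1000 bp of the peak, so the count of a listed gene is not always its own.

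**Figure D3:**
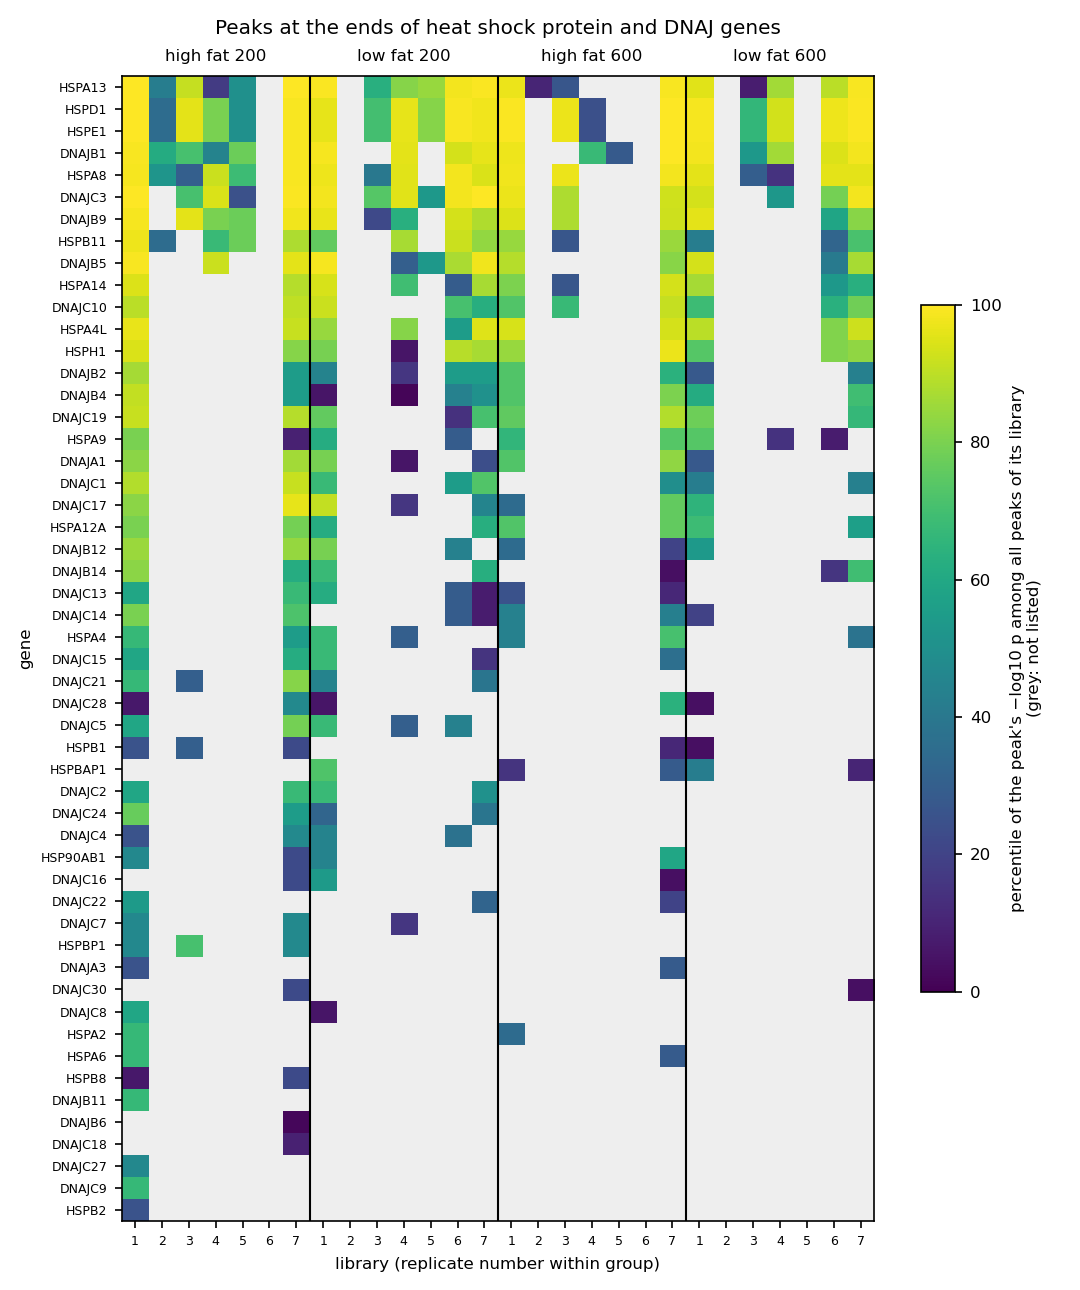
Map of the 52 listed genes (rows, by number of libraries) over the 28 libraries (columns, by group and replicate number). Colour gives the percentile of the peak's −log10 p among all peaks of its library, and grey means not listed. The upper 9 rows, from HSPA13 to DNAJB5, and the row of HSPA9 reach into libraries under 1000 peaks. Rows below HSPA14 are filled almost only in replicates 1 and 7 of high fat and 1, 4, 6 and 7 of low fat.

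No end peak was listed for 17 genes. Of the small heat shock protein genes these were HSPB3, HSPB6 and HSPB7, best known from muscle, and HSPB9, known from testis. Of the DNAJB group they were DNAJB3, DNAJB7, DNAJB8 and DNAJB13. The others were DNAJA2, DNAJA4, DNAJC5B, DNAJC5G, DNAJC6 (auxilin, which uncoats clathrin vesicles in neurons), DNAJC11, DNAJC12, HSPA12B and HSPA1L. Of the 17, 13 had no peak in the gene or within 1000 bp of it. The exceptions were DNAJC12 in 5 libraries, HSPA1L in 3, and DNAJA2 and HSPA12B in 1 each. HSPA1L spans HSP70.2, the RefSeq symbol of the inducible HSPA1A and HSPA1B, whose own ends were listed in 3 libraries. The inducible HSP70 genes are near-identical copies, and no source used here says how the authors placed reads that fit several copies. At the limit of the window, the farthest centre still counted lay 875 bp from an end of DNAJB12, and the nearest left out lay 1032 bp from an end of HSPA6.

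Within the window of 1000 bp, peaks were mostly near the annotated end. Of 396 pairs of a gene and a peak, 386 (97.5%) had the centre within 500 bp of the nearer end, and the median distance was 136 bp. Over all genes with a symbol it was 87.4% of 45711 pairs, with a median of 146 bp. The window itself chose these peaks, and no test was made. In 244 pairs the centre was outside the gene. Of the 52 listed genes, 47 had peaks at 1 of their ends only and 5 at both. The annotation used here gives no strand, so start and end of transcription were not told apart.

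**Figure D4:**
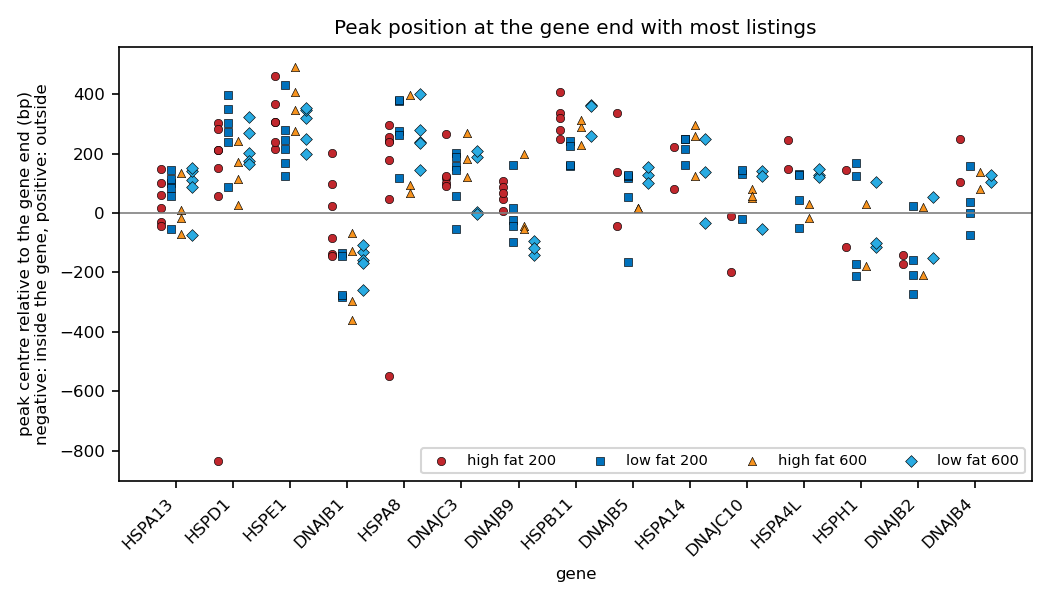
Peak centre relative to the gene end with most listings in bp (vertical axis, negative inside and positive outside the gene) for the 15 genes listed in at least 10 libraries. Each point is 1 peak, by group. HSPD1, HSPE1, HSPA8 and HSPB11 lie mostly outside the gene and DNAJB1 mostly inside, and a second peak of HSPA8 and of HSPD1 lies 549 and 835 bp inside.

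In each library the share of the set that was listed was set beside that of all genes with a symbol, since both grow with the number of peaks. The share of the set was above that of all genes in 23 of 28 libraries, and the other 5 listed no gene of the set. High fat 200 replicate 1 listed 47 genes of the set (68.1%) against 41.1% of all genes, and replicate 7 listed 42 (60.9%) against 36.6%. In low fat 200 replicate 1 it was 36 (52.2%) against 29.9%. The difference was 10.4 percentage points ± 8.75 (SD, n = 28) over all libraries and 16.8 ± 6.62 (n = 15) over those with at least 1000 peaks. The ratio of the shares was 1.59 to 5.75 in those 15 libraries. With only the 1000 strongest peaks of each of these 15, the set was above all genes in 15 of 15, by 10.3 points ± 2.21 (SD). DNAJB9 and the pair HSPD1 and HSPE1, which share 1 peak, were among the 1000 strongest peaks in all 15, DNAJB1, DNAJC3 and HSPA8 in 14 and HSPA13 in 13. In the smallest of the 15, with 1137, 1325 and 1336 peaks, most listed peaks are among the 1000 strongest.

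**Figure D5:**
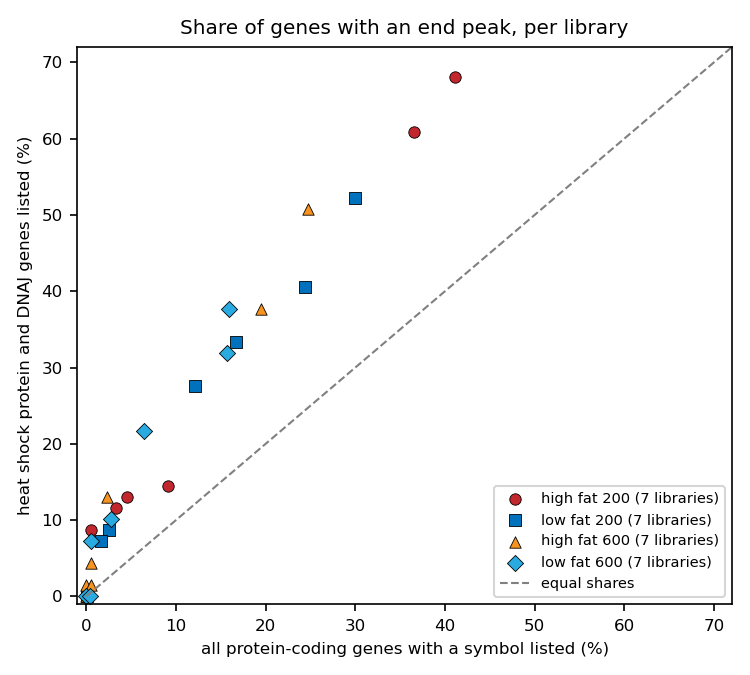
Percentage of the 69 heat shock protein and DNAJ genes listed (vertical axis) against that of all genes with a symbol (horizontal axis), 1 point per library, by group. The dashed line marks equal shares. All 15 libraries with at least 1000 peaks lie above it, up to 68.1% against 41.1%.

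The 13 libraries under 1000 peaks listed 0 to 7 genes of the set each. In high fat 200 replicate 2, with 320 peaks, 6 of the 93 listed genes were of the set (8.70% of the set against 0.570% of all genes), namely DNAJB1, HSPA13, HSPA8, HSPB11 and the pair HSPD1 and HSPE1, which share 1 peak. In low fat 600 replicate 3, with 141 peaks, it was 5 of 82 (7.25% against 0.503%), and in low fat 600 replicate 4, with 526 peaks, 7 of 444 (10.1% against 2.72%), the shared peak again counting for both genes. High fat 600 replicate 5 listed DNAJB1 alone among 82 genes. Over these 13 libraries 10 genes of the set (14.5%) were listed at least once, beside 5.73% of all genes. They were HSPA9 and 9 of the 15 genes in at least 10 libraries, a count to which the small libraries themselves add. Of all 1465 genes in at least 10 libraries, 771 (52.6%) were listed in a library under 1000 peaks.

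Strength within the library was compared with other gene ends as a description. Counting libraries with 5 or more peaks at ends of the set, 7 were of the 600 set, where the median percentile of these peaks was 68.4 to 77.6, and that of all peaks at ends of genes with a symbol 45.4 to 67.4. The set was higher in 7 of 7, by 10.1 to 24.1 percentile points. In the 11 such libraries of the 200 set it was higher in 7, with differences from −8.19 to 35.3. Peaks were wider in the 600 than in the 200 set for the genes of the set (library medians of 850.5 to 1270 bp against 442 to 816 bp) and for all gene ends (838 to 1200.5 bp against 454 to 685.5 bp).

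Livers labelled high and low fat were compared by the number of libraries that listed each gene. In high fat 200 libraries 51 genes of the set were listed at least once (73.9%, against 49.5% of all genes) and in low fat 200 libraries 39 (56.5%, against 36.1%). For the 600 set it was 36 (52.2%, against 28.1%) and 29 (42.0%, against 19.7%). These counts rest on the libraries with most peaks. The median library listed 9 genes of the set in high fat 200 and 19 in low fat 200, and 3 and 7 in the 600 set, with medians of 1610 and 2467 peaks and of 190 and 526. The part of peak number was not tested. With Fisher's exact test over all genes listed in at least 3 libraries and Benjamini-Hochberg adjustment, 0 of 37 tested genes of the set passed an adjusted p of 0.05 in the 200 set. The share passing was 0% of 4948 genes. It was 0 of 26 in the 600 set (0% of 2588) and 0 of 39 over animals (0% of 5186). No gene of any kind had an unadjusted p under 0.05 in these 3 comparisons. A gene listed in 4 of 7 libraries of one group and none of the other gives an exact p of 0.0699. The smallest that 7 against 7 can give is 0.000583, before adjustment over all genes. Genes of the set could not reach that value here. High fat 200 replicate 6 and low fat 200 replicate 2 listed no gene of the set. High fat 600 replicate 6 and low fat 600 replicate 2 listed no gene with a symbol. The exact sign test over same-numbered libraries also gave 0 calls, but with 7 pairs its p cannot go below 0.0156. The numbers follow the order of libraries within a group, so a high and a low fat library of one number have no known link. The tests do not show that the groups are alike.

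The lowest p of a fat comparison in the set, 0.192, belonged to 2 rarely listed genes. HSPB1 was listed in high fat 200 replicates 1, 3 and 7, with −log10 p of 3.98, 3.74 and 4.12, and in no low fat 200 library (Fisher's exact test p = 0.192, adjusted p = 1). In the 600 set HSPB1 was listed in 1 high fat library (3.33) and 1 low fat library (3.15). HSPBP1, a nucleotide exchange factor of HSP70, was listed in the same 3 high fat 200 libraries, with 4.32, 4.15 and 4.60, and in no other library (exact p = 0.192, adjusted p = 1). These 3 libraries are the high fat 200 libraries with most peaks, 17652, 6288 and 11943, while low fat 200 libraries held at most 8221. The part of peak number in the difference was not tested.

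In the other direction DNAJB2, DNAJB4, DNAJB5, HSPA4L and HSPH1 were listed in more low fat than high fat animals. DNAJB5 was listed in 5 low fat and 3 high fat animals, and the others in 4 and 2 (exact p = 0.592 for each, adjusted p = 1). HSPA8 was listed in 3 high fat and 5 low fat 600 libraries, with the same p. DNAJB2, DNAJB4, HSPA4L and HSPH1 were each listed in replicates 1 and 7 of high fat 200 and 1, 4, 6 and 7 of low fat 200. Those libraries listed the largest shares of all genes in the 200 set, 12.1% to 41.1%. The part of library size in these differences was not tested. Over the 39 genes tested in animals, 10 were listed in more high fat animals, 17 in more low fat animals and 12 in as many. Of all 5186 genes tested, 1399 were listed in more high fat animals and 2265 in more low fat animals (43.7%, beside 43.6% of the set). Of the 52 listed genes, 11 (21.2%) were seen in high fat animals only and 0 in low fat animals only, against 29.9% and 4.27% of all listed genes. HSPBP1 was the most often listed of the 11, in 3 animals.

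The 600 and 200 libraries were compared over 14 against 14. The label cannot be told apart from the sequencing lane, since each set carries 1 lane tag. The 600 libraries also held fewer peaks, with a median of 358 against 2038.5 in the 200 libraries. They listed a median of 1.42% of all genes, against 6.82%, and the part of peak number in the differences below was not tested. Of the 40 genes of the set tested, 35 (87.5%) were listed in fewer 600 than 200 libraries, beside 84.1% of all 5454 genes tested, and 3 in more. By Fisher's exact test 0 of 40 passed the adjusted threshold (0% of all genes), and 2 had an unadjusted p under 0.05, beside 4.13% of all genes. These were DNAJC21, a ribosome assembly factor, and DNAJC5 (cysteine string protein), a chaperone of vesicle release, each in 5 of the 200 and 0 of the 600 libraries (exact p = 0.0407, adjusted p = 0.832). The exact sign test over same-numbered pairs gave 0 calls, and 0 genes of the set had an unadjusted p under 0.05 by it, beside 1.83% of all genes. HSPBAP1 went the other way, with 1 of the 200 and 4 of the 600 libraries (exact p = 0.326, adjusted p = 0.942). HSPD1, HSPE1 and HSPA13 were each listed in 12 of the 200 and 9 of the 600 libraries (exact p = 0.385).

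What the 600 libraries listed was largely also in the 200 library of the same number. The set had 239 listings in the 200 and 150 in the 600 libraries, of which 134 were shared, 89.3% of the 600 and 56.1% of the 200 listings. For all genes with a symbol the shares were 89.7% and 43.9%. Of the 52 listed genes, 37 were listed in both sets, 15 in the 200 set only and 0 in the 600 set only. The difference of the fat effect between the labels passed for 0 of 40 genes of the set by exact permutation of the fat groups (0% of 5454). The lowest unadjusted p was 0.192, for DNAJC13, HSPA8 and HSPBP1, and 0.0733% of all genes had an unadjusted p under 0.05.

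Partners of the chaperones were counted from a list of 50 genes, of which 48 were matched and HSF4 and BAG5 were not analysed here. At least 1 library listed 34 of them (70.8%, against 52.9% of all genes), at least 3 listed 28 (58.3%, against 33.4%) and at least 10 listed 10 (20.8%, against 8.98%). HSF2, a heat shock transcription factor, led with 17 libraries, 6 high fat and 6 low fat of the 200 and 2 and 3 of the 600 set. TCP1, a subunit of the cytosolic chaperonin, followed with 13, TOMM70, an import receptor of mitochondria that docks HSP70 and HSP90, with 12, and AHSA1, the activator of HSP90, with 11. CLPX and SUGT1 were also listed in 11. HSF1, the main factor of the heat shock response, was listed in no library at either end. None of the 48 passed in any of the 5 comparisons, since no gene did.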

How the data were processed

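Per the submitters' processing notes, FastQC, BWA, SAMtools, Picard and Genrich were used with the build Sscrofa11.1, and their versions and roles are not given in the sources used here. The authors deposited 1 peak list per library, 84192 peaks in all, with no read counts, so sequencing depth is unknown. Per the file headers it holds a score, a signal value and a p-value column, read as −log10 p since no value is under 2.83. The deposited signal is the peak's area, and the deposited score equals 1000 times signal over width, capped at 1000, in 99.9988% of peaks, so start positions were read as counted from 0 and printed from 1. No deposited score is under 800 and peak names skip numbers, so the lists may hold only part of the called peaks.

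Each peak, placed at its centre, was given to every gene with an end within 1000 bp, using the RefSeq table of the same build. Promoter sequences were not used here. Genes listed in at least 3 libraries were tested by Fisher's exact test, two-sided, over all genes with a symbol, with Benjamini-Hochberg adjustment. Whether fat effects differed by label was tested by permuting the fat groups exactly over pairs of libraries. The tests were run on simulated lists in which a gene had the same rate in every library, apart from planted, near-complete group differences. Real libraries differ widely in peak number, so the simulation does not show how the tests behave on these lists. No set test was made. The planned promoter motifs were not searched. Genes were named when listed in at least 10 libraries, for the smallest p per direction (up to 5) or when lacking end peaks; HSPB1, HSPA2, HSPA6, HSP90AB1, DNAJB11, DNAJC1 and others below these limits were chosen after their values were seen. The genes and lists were chosen with earlier results of these data known. Nothing says that libraries of a group come from separate animals, so p-values measure the spread between libraries. Alternatives were other windows, the summit or any overlap, stronger peaks, autosomes, widths, no minimum of libraries, the replicate block and left-out animals. Software was matplotlib 3.10.9, scipy 1.17.1, Python 3.11.15, pandas 2.3.3 and numpy 2.4.6.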

Additional observations from a re-analysis of the deposited data

How the results depend on the processing

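The number of listed genes of the set lay between 45 (65.2%, against 40.0% of all genes, with peaks at or above the label's median strength) and 56 (81.2%, against 67.0%, with a window of 5000 bp). Genes in at least 10 libraries numbered 11 to 19 under these settings and 13 to 15 with each library left out. The set's share minus that of all genes stayed between 7.89 and 16.8 percentage points. In every fat and label comparison 0 genes of the set passed under each alternative. For the fat comparisons this says little on stability, since groups of at most 7 left little room for a call. With the window of 1000 bp, high fat 600 replicate 6 and low fat 600 replicate 2 listed no gene with a symbol. For 600 against 200, 2 and 3 genes outside the set passed with windows of 2500 and 5000 bp. The 2 genes with an unadjusted p under 0.05 for 600 against 200 became 0 with the stronger peaks, with the replicate block, and when high fat replicate 1, high fat replicate 7 or low fat replicate 1 was left out, and lay between 1 and 3 under the others. For the difference of fat effects by label this count went from 0 to 1 with the middle 90% of peak widths. With the replicate block, an exact sign test over pairs of one replicate number, 0 genes passed in each fat comparison and for 600 against 200, and 0 of the set had an unadjusted p under 0.05. The lowest p this test can give is 0.0156 for 7 pairs and 0.000122 for 14, so with 7 pairs it has little to say on stability. In the fat comparisons the pairs join high and low fat libraries by running number alone, which is arbitrary. Deviations of 200 and 600 libraries of one number correlated across genes by 0.163 to 0.709 in high fat and 0.0330 to 0.780 in low fat pairs, and 2 of 7 and 3 of 7 matched best with their own number, so the pairing was not taken as shown. High and low fat libraries of one number correlated by −0.281 to 0.703 in the 200 and −0.165 to 0.795 in the 600 set. Alternatives chosen after the data were seen were the 1000 strongest peaks, libraries with at least 1000 peaks for the fat 200 test and for the count of listed genes, high fat 200 replicate 1 left out, and each library left out. Unknown depth limits all listings, and libraries with few peaks can show little.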
